A study of Saccharomyces cerevisiae with 30 samples.

Results

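The 38 genes described here encode the enzymes that carry glucose to pyruvate, pyruvate to ethanol or acetyl-CoA, and pyruvate back to glucose in Saccharomyces cerevisiae. They were chosen by name, and all 38 were found among the 6932 features of the deposited expression table. By role they were 8 genes of upper glycolysis, 9 of lower glycolysis, 3 pyruvate decarboxylases, 5 alcohol dehydrogenases, 5 acetaldehyde dehydrogenases, 2 acetyl-CoA synthetases and 6 genes of gluconeogenesis, anaplerosis and the glyoxylate cycle. The samples were polyA RNA of yeast in nitrogen-starved medium and in rich medium, with 1 library each, and genomic DNA from 28 calling card libraries, 1 per transcription factor. The factors were Flo8, Mss11, Mfg1, Sok2, Ste12, Tec1, Mit1, Nrg1, Sfl1, Phd1, Mga1, Rim101, Rlm1, Rtg1, Skn7, Smp1, Fkh1, Dig1, Gln3, Hms1, Msn1, Hot1, Hms2, Yap6, Msn2, Msn4, Gcn4 and Rgm1. The series' design text names the strain as Σ1278b, a background that can grow as filaments. Calling cards record binding as DNA insertions: the factor steers the Ty5 retrotransposon, and insertions collect near where it binds. Per the labels' protocols the calling card cells grew in a synthetic medium low in ammonium and Ty5 was induced in 2% galactose, a carbon source other than glucose. The RNA libraries carry the same protocol text, so the composition of their media is known only from the names of the media. These names give no carbon source.

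Glycolysis splits glucose into pyruvate and gives the cell ATP. Baker's yeast sends most of that pyruvate to ethanol through pyruvate decarboxylase and alcohol dehydrogenase while glucose is plentiful, even in air. When glucose runs out it can burn the ethanol through acetaldehyde, acetate and acetyl-CoA, and rebuild sugar by gluconeogenesis. Many of these steps have several isoenzyme genes, some used during fermentation on glucose and others repressed by glucose. Glucose repression acts through Mig1 and the kinase Snf1, and the activators Adr1 and Cat8 switch on genes for growth on ethanol.

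The comparison of media asked how transcript levels differed between nitrogen-starved and rich medium. Levels are RPKM, read counts scaled for gene length and library size, as the authors deposited them. With 1 library per medium there was no spread between replicates, so no test was made and differences are given as measured. The log2 change is log2((starved + 1)/(rich + 1)); adding 1 makes the change of weakly expressed genes look smaller. A feature counted as higher or lower when this value reached 2-fold and its RPKM was at least 5 in either medium. In bulk RNA a change per cell and a change in the mix of cells cannot be told apart.

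Of the 35 genes that passed the filter on low values, 23 had a log2 change below 0 and 12 were at least 2-fold lower in nitrogen-starved medium, where 4.05% of the 6122 features that passed were lower. The 12 were HXK2, FBA1, TDH2, TDH3, PGK1, GPM1, ENO2, CDC19, PDC1, ADH1, ADH5 and ALD6. A further 7 were at least 2-fold higher, where 10.8% of features were, namely HXK1, GLK1, PYK2, ADH2, ALD4, PCK1 and ICL1. The median log2 change of the 35 was -0.71, against 0.01 over all features. PDC6, ALD3 and MLS1 stayed under 5 RPKM in both media. The 38 genes summed to 30509 RPKM in nitrogen-starved medium and 65818 in rich medium, which was 1.91% and 3.95% of the summed RPKM of all features.

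The change was also set beside the level in rich medium, a value that enters the change itself. All 12 genes with at least 1000 RPKM in rich medium were lower in nitrogen-starved medium, 10 of them by at least 2-fold. Of all 248 features at that level, 206 were lower and 37 (14.9%) were lower by at least 2-fold, with a median log2 change of -0.73 against -1.15 for the 12 genes. Of the 15 genes under 100 RPKM in rich medium that passed the filter, 6 were at least 2-fold higher and 1, ADH5, at least 2-fold lower. Of all 4265 features of that kind 501 (11.8%) were higher and 125 (2.93%) lower. A feature under 5 RPKM in rich medium passes the filter only through its nitrogen-starved value. PCK1, among the 6, and FBP1 passed in this way. The filter thus favours higher over lower features in both sets.

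**Figure D1:**
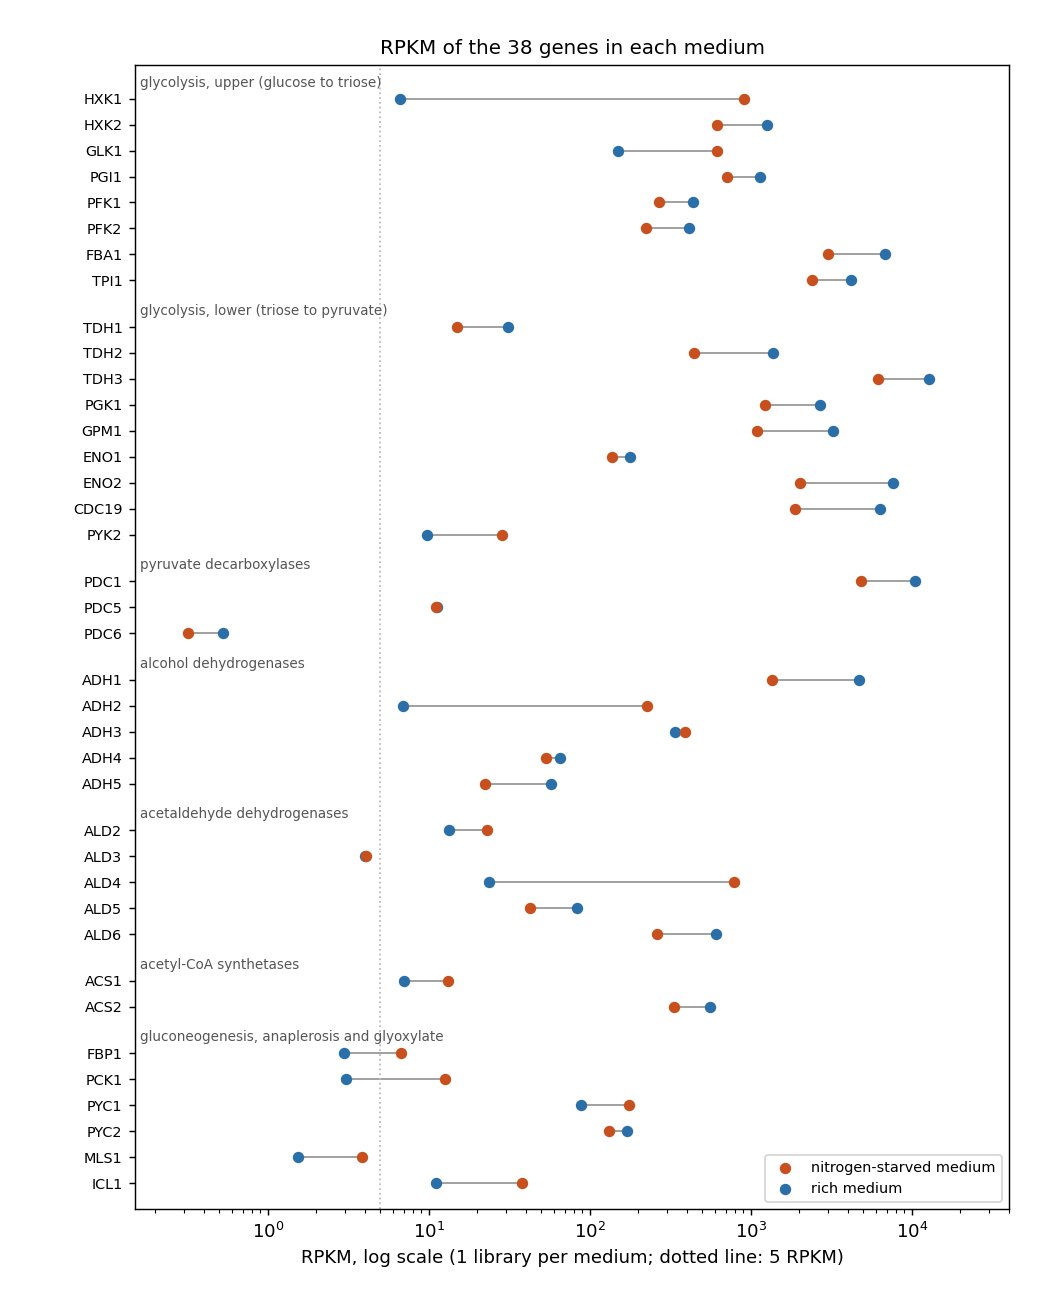
RPKM of each gene (log axis) in nitrogen-starved medium (orange) and rich medium (blue), 1 library per medium, grouped by role. HXK1, ADH2 and ALD4 have the longest lines with the orange point on the right, and the abundant genes from FBA1 to ADH1 have it on the left.

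Glucose is first phosphorylated by a hexokinase or glucokinase, and here the leading gene differed between the media. HXK1, a hexokinase gene repressed by glucose, had 912 RPKM in nitrogen-starved medium and 6.61 in rich medium, a ratio of 138. This was the 6th largest log2 change upward of all 6122 features. HXK2, the main hexokinase on glucose and a partner in glucose repression, had 613 RPKM in nitrogen-starved medium and 1253 in rich medium. GLK1, the glucokinase gene, had 619 RPKM in nitrogen-starved medium and 149 in rich medium. HXK2 thus held 28.6% of the summed RPKM of the step in nitrogen-starved medium and 89.0% in rich medium, while HXK1 held 42.5% in nitrogen-starved medium and 0.469% in rich medium. The sum of the 3 genes was 2145 RPKM in nitrogen-starved medium and 1408 in rich medium.

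Overlapping genes limit the values of HXK1 and GLK1. The table gives HXK1 and YFR052C-A the same coordinates, and YFR052C-A had 1350 RPKM in nitrogen-starved medium and 20.9 in rich medium. GLK1 shares its coordinates with PDI1, YCL041C and YCL042W. YCL042W differed in the same direction as GLK1, with 532 RPKM in nitrogen-starved medium and 120 in rich medium, whereas PDI1, a protein disulfide isomerase gene, had 1314 in nitrogen-starved medium and 1269 in rich medium. The sources used here do not give how reads of overlapping genes were divided.

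The remaining genes of upper glycolysis were all lower in nitrogen-starved medium. PGI1, phosphoglucose isomerase, had 706 RPKM in nitrogen-starved medium and 1137 in rich medium. PFK1 and PFK2 encode the subunits of phosphofructokinase, the committed step of glycolysis. PFK1 had 268 RPKM in nitrogen-starved medium and 438 in rich medium, and PFK2 had 223 in nitrogen-starved medium and 411 in rich medium. The subunit genes kept close to equal levels, with PFK1 at 1.2 times PFK2 in nitrogen-starved medium and 1.07 times in rich medium. FBA1, the aldolase gene, had 3026 RPKM in nitrogen-starved medium and 6829.8 in rich medium. TPI1, triose phosphate isomerase, had 2409 in nitrogen-starved medium and 4191 in rich medium. Of these 5 genes only FBA1 passed 2-fold, with a log2 change of -1.17.

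Lower glycolysis was also mostly lower. Of its 9 genes 6 were at least 2-fold lower and 1, PYK2, at least 2-fold higher, with a median log2 change of -1.12 against -0.75 for the 8 upper genes. TDH3, the main glyceraldehyde phosphate dehydrogenase gene, had 6159 RPKM in nitrogen-starved medium and 12715 in rich medium, the highest level of the 38 genes in both media. Its paralog TDH2 had 443 in nitrogen-starved medium and 1382 in rich medium, and TDH1, an isoenzyme known from resting cells, had 15.0 in nitrogen-starved medium and 30.8 in rich medium. TDH3 held 93.1% of the step in nitrogen-starved medium and 90.0% in rich medium. With 1 added TDH1 lay just short of 2-fold, at a log2 change of -0.99, although the plain ratio of its RPKM was 2.05.

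PGK1, phosphoglycerate kinase, had 1231 RPKM in nitrogen-starved medium and 2675 in rich medium. GPM1, phosphoglycerate mutase, had 1095 in nitrogen-starved medium and 3240.4 in rich medium. Both share their table coordinates with a gene on the opposite strand by name, PGK1 with YCR013C and GPM1 with YKL153W, which were also lower, at log2 changes of -1.20 for each. The enolase genes differed in size of change. ENO2, the enolase of growth on glucose, had 2009 RPKM in nitrogen-starved medium and 7626 in rich medium, the lowest log2 change of the 38 genes at -1.92. ENO1, the isoenzyme known from growth without glucose, had 137 in nitrogen-starved medium and 177 in rich medium, a log2 change of -0.36. ENO1 accounted for 6.39% of the enolase RPKM in nitrogen-starved medium and 2.26% in rich medium.

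The last step of glycolysis, pyruvate kinase, showed opposed isoenzymes. CDC19, the main pyruvate kinase gene, had 1875 RPKM in nitrogen-starved medium and 6383 in rich medium. PYK2, which is repressed by glucose, had 28.4 in nitrogen-starved medium and 9.77 in rich medium. CDC19 nevertheless stood 66.0-fold above PYK2 in nitrogen-starved medium and 653-fold above it in rich medium. CDC19 shares its coordinates with YAL037C-B, which had 203 RPKM in nitrogen-starved medium and 668 in rich medium.

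**Figure D2:**
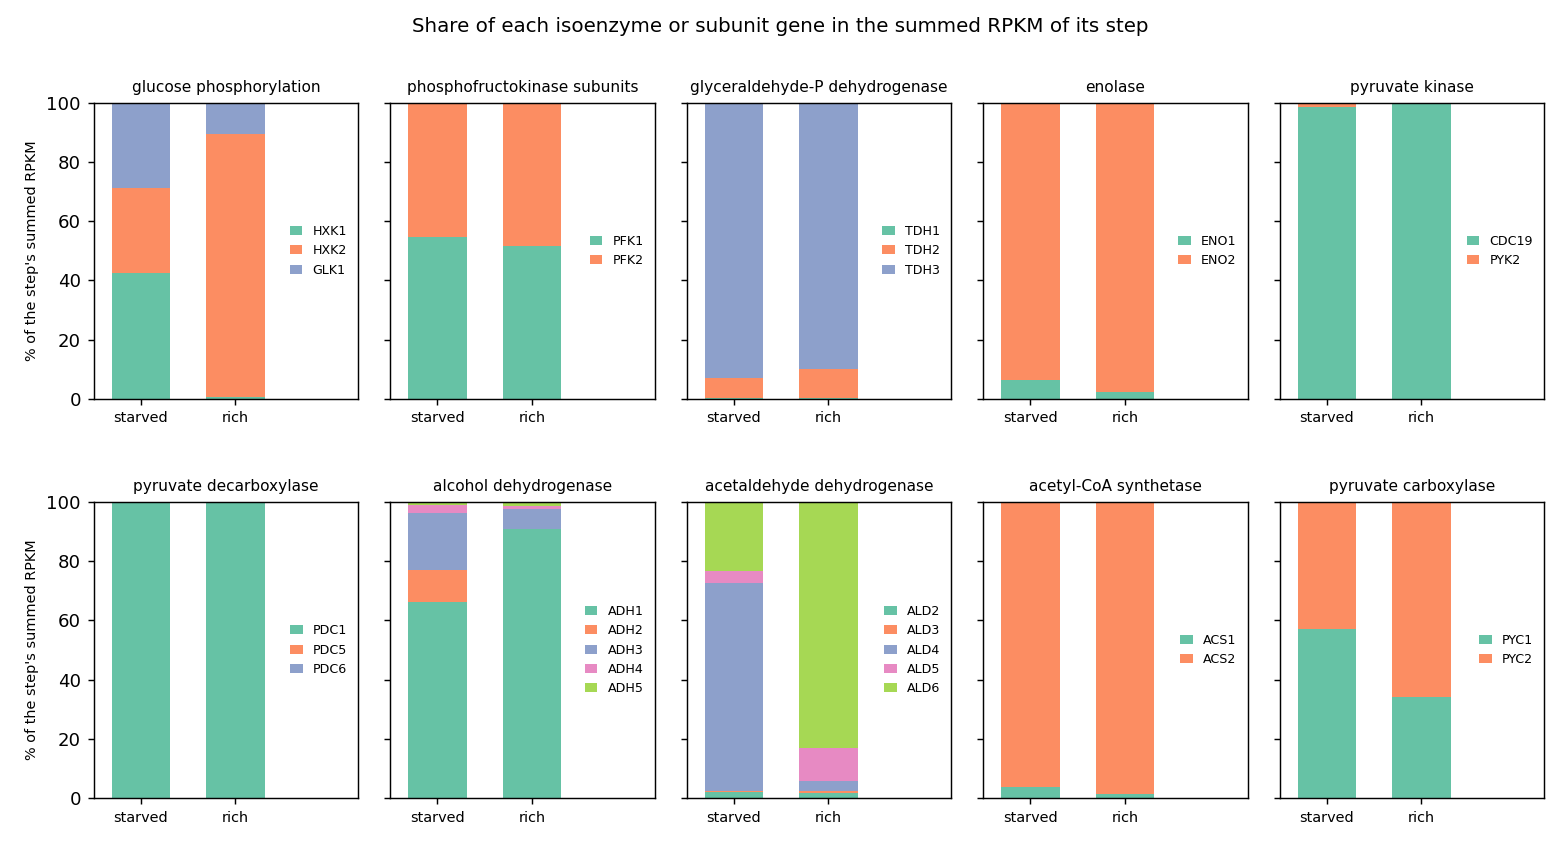
Share of each gene in the summed RPKM of its step (percent, y axis) in nitrogen-starved medium (left bar) and rich medium (right bar), 1 library per medium. HXK1 and ALD4 lead their steps in the starved bars, where HXK2 and ALD6 lead in the rich bars, while TDH3, ENO2, CDC19, PDC1, ADH1 and ACS2 lead in both.

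Fermentation turns pyruvate into acetaldehyde and then ethanol. PDC1, the main pyruvate decarboxylase gene, had 4846 RPKM in nitrogen-starved medium and 10447 in rich medium. Its paralog PDC5 had 11.1 in nitrogen-starved medium and 11.2 in rich medium, and PDC6 had 0.317 in nitrogen-starved medium and 0.527 in rich medium. PDC1 held over 99% of the step in both media, at 99.8% in nitrogen-starved medium and 99.9% in rich medium.

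The alcohol dehydrogenases differed in direction. ADH1, which makes ethanol from acetaldehyde, had 1358 RPKM in nitrogen-starved medium and 4663 in rich medium. ADH2, the glucose-repressed enzyme that oxidises ethanol, had 225 in nitrogen-starved medium and 6.93 in rich medium, a ratio of 32.5. Its change ranked 30th upward among all features. ADH1 stood 6.04-fold above ADH2 in nitrogen-starved medium and 673-fold above it in rich medium. ADH3, the mitochondrial isoenzyme, had 391 RPKM in nitrogen-starved medium and 339 in rich medium. ADH4 had 53.7 in nitrogen-starved medium and 65.3 in rich medium, and ADH5 had 22.3 in nitrogen-starved medium and 57.7 in rich medium. The summed RPKM of the 5 genes was 2.50-fold lower in nitrogen-starved medium.

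Among the acetaldehyde dehydrogenases the leading gene was ALD4 in nitrogen-starved medium and ALD6 in rich medium. ALD4, a mitochondrial enzyme repressed by glucose, had 785 RPKM in nitrogen-starved medium and 23.7 in rich medium, a ratio of 33.1 and the 26th largest change upward. ALD6, the main cytosolic enzyme, had 261 in nitrogen-starved medium and 607 in rich medium. ALD5, a further mitochondrial enzyme, had 42.6 in nitrogen-starved medium and 83.3 in rich medium. ALD4 held 70.3% of the step in nitrogen-starved medium and 3.25% in rich medium, while ALD6 held 23.4% in nitrogen-starved medium and 83.0% in rich medium. The stress-linked tandem neighbours ALD2 and ALD3 were low, with ALD2 at 23.0 in nitrogen-starved medium and 13.3 in rich medium, and ALD3 at 4.09 in nitrogen-starved medium and 4.0 in rich medium.

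Acetyl-CoA synthetase makes acetyl-CoA from acetate. ACS2, the isoenzyme of growth on glucose, had 334 RPKM in nitrogen-starved medium and 560.1 in rich medium. ACS1, the glucose-repressed isoenzyme, had 13.1 in nitrogen-starved medium and 6.96 in rich medium. Neither reached 2-fold, and ACS2 was 25.5-fold above ACS1 in nitrogen-starved medium and 80.4-fold above it in rich medium.

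The genes of gluconeogenesis and the glyoxylate cycle were mostly higher in nitrogen-starved medium but stayed low. PCK1, phosphoenolpyruvate carboxykinase, had 12.6 RPKM in nitrogen-starved medium and 3.04 in rich medium. FBP1, fructose bisphosphatase, had 6.75 in nitrogen-starved medium and 2.98 in rich medium, just under 2-fold on the log2 scale with 1 added. The glyoxylate cycle lets the cell build sugar from acetyl-CoA. ICL1, its isocitrate lyase, had 37.8 in nitrogen-starved medium and 11 in rich medium, and MLS1, its malate synthase, had 3.84 in nitrogen-starved medium and 1.55 in rich medium. PCK1 and ICL1 passed 2-fold. These levels remained far from those of glycolysis, since PFK1 was 39.6-fold above FBP1 in nitrogen-starved medium and 147-fold above it in rich medium.

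Pyruvate carboxylase feeds oxaloacetate to the TCA cycle and to gluconeogenesis, and its gene pair stood in opposite order in the 2 media. PYC1 had 176 RPKM in nitrogen-starved medium and 87.9 in rich medium, while PYC2 had 132 in nitrogen-starved medium and 171 in rich medium. PYC1 held 57.0% of the step in nitrogen-starved medium and 34.0% in rich medium. Neither gene passed 2-fold on the log2 scale, with PYC1 at 0.99.

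Paralogs with similar coding sequence, such as TDH2 and TDH3, ENO1 and ENO2, PDC1 and PDC5, and ADH1 and ADH2, can share reads. The lower gene of each such pair is thus uncertain where the other is abundant. The ADH2 and PYK2 values ran opposite to their abundant paralogs, while TDH2 and ENO1 ran in the same direction as theirs and PDC5 hardly differed. Sequences were not compared, and sharing of reads was not tested.

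Other genes of carbon metabolism set the values in context. Among 8 regulators of glycolysis, which included GCR1, GCR2, RAP1 and TYE7, 0 reached 2-fold in either direction, and their median log2 change was -0.05. Of 10 genes of glucose repression and derepression, 9 passed the filter on low values. ADR1 had 124 RPKM in nitrogen-starved medium and 8.61 in rich medium, and CAT8 had 24.6 in nitrogen-starved medium and 1.38 in rich medium. MIG2, a repressor gene induced by glucose, had 7.96 in nitrogen-starved medium and 86.2 in rich medium. MIG1 itself had 82.7 in nitrogen-starved medium and 85.5 in rich medium, and SNF1 71.3 in nitrogen-starved medium and 73.6 in rich medium.

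Of 15 listed further enzymes and carriers of carbon metabolism 13 passed the filter, 8 of them at least 2-fold higher and 1 lower. The higher ones were ACO1, IDP2, SFC1, JEN1, CYB2, GPM2, EMI2 and YIG1, for example the lactate carrier gene JEN1 with 78.3 RPKM in nitrogen-starved medium and 7.17 in rich medium. The lower one was CIT2, the peroxisomal citrate synthase, with 14.2 in nitrogen-starved medium and 91.2 in rich medium. In the glycerol branch GPP1 had 505 RPKM in nitrogen-starved medium and 1542 in rich medium, while its paralog GPP2 had 72.3 in nitrogen-starved medium and 31.8 in rich medium. Of the 18 TCA cycle genes 15 were at least 2-fold higher, with a median log2 change of 2.04. They were CIT1, ACO1, IDH1, IDH2, KGD1, KGD2, LPD1, LSC1, LSC2, SDH1, SDH2, SDH3, SDH4, FUM1 and MDH1, and the succinate dehydrogenase subunit gene SDH4 had 1189 RPKM in nitrogen-starved medium and 116 in rich medium. Of the 17 genes of trehalose and glycogen 10 were at least 2-fold higher, with a median of 1.22, namely TSL1, NTH2, ATH1, GSY1, GSY2, GLC3, GLG2, GPH1, GDB1 and PGM2. Of the 9 known targets of Msn2 and Msn4 that passed the filter 4 were at least 2-fold higher, HSP12, DDR2, GSY2 and PGM2. Of the 5 pyruvate dehydrogenase genes, which carry pyruvate into the TCA cycle, 1 passed 2-fold, LPD1, with 466 in nitrogen-starved medium and 179 in rich medium.

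The comparison of factors asked which of the 28 factors placed insertions upstream of these genes. Insertions were counted in the 1200 bp upstream of each start codon. The libraries held 2836 to 41619 insertions and 401017 in all. No library without a factor was among the samples, so each library was set against the sum of the 27 others in a one-sided Fisher's exact test, adjusted by Benjamini-Hochberg over 6444 genes and 28 factors. This test compares libraries, not cultures. Each interval is an exact 95% Poisson interval of the count and so covers no error beyond counting. The authors' deposited table gives a p-value of their own per gene and factor, and a call there is a p-value at or under 0.001.

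Most windows of the 38 genes held more insertions than a typical gene. Summed over the libraries the windows held a median of 102 insertions, against 30 over all genes, and 27 of the 38 lay above the 75th percentile. ADH3 with 416 and HXK1 with 413 had the most, and TPI1 with 26 and ALD3 with 24 the fewest. The order did not follow transcript level. Across the 38 genes Spearman's rho between insertions and RPKM was -0.02 in nitrogen-starved medium and -0.04 in rich medium, against 0.15 and 0.09 across the 6444 genes, which share the same libraries and are not independent. HXK1, GLK1 and HXK2 held 413, 117 and 46 insertions, and ENO1 and ENO2 held 231 and 37.

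The authors' deposited table called 11 of the 1064 gene and factor pairs (1.03%), against 0.879% of pairs over all genes. They fell on 8 of the 38 genes (21.1%), against 11.3% of all genes. Fisher's exact test passed 20 pairs (1.88%), against 0.996% over all genes, on 16 of the 38 genes (42.1%), against 21.1% of all genes. Windows with more insertions give this test more to work with. Among genes with at least 24 insertions, the fewest of any window here, 30.0% of genes and 1.46% of pairs passed Fisher's exact test and 17.5% of genes had a deposited call, a minimum set after the windows had been counted. This minimum does not match the sets in number of insertions. Of the 3940 genes that reached it 904 held at least 101 insertions, while the 38 windows had a median of 102. The 20 pairs that passed involved 14 of the 28 factors, and the deposited calls 9. A total of 8 pairs passed both ways, and 22 genes had no call either way. Where no factor was called, a difference between libraries may still have been too small to detect at these counts.

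**Figure D3:**
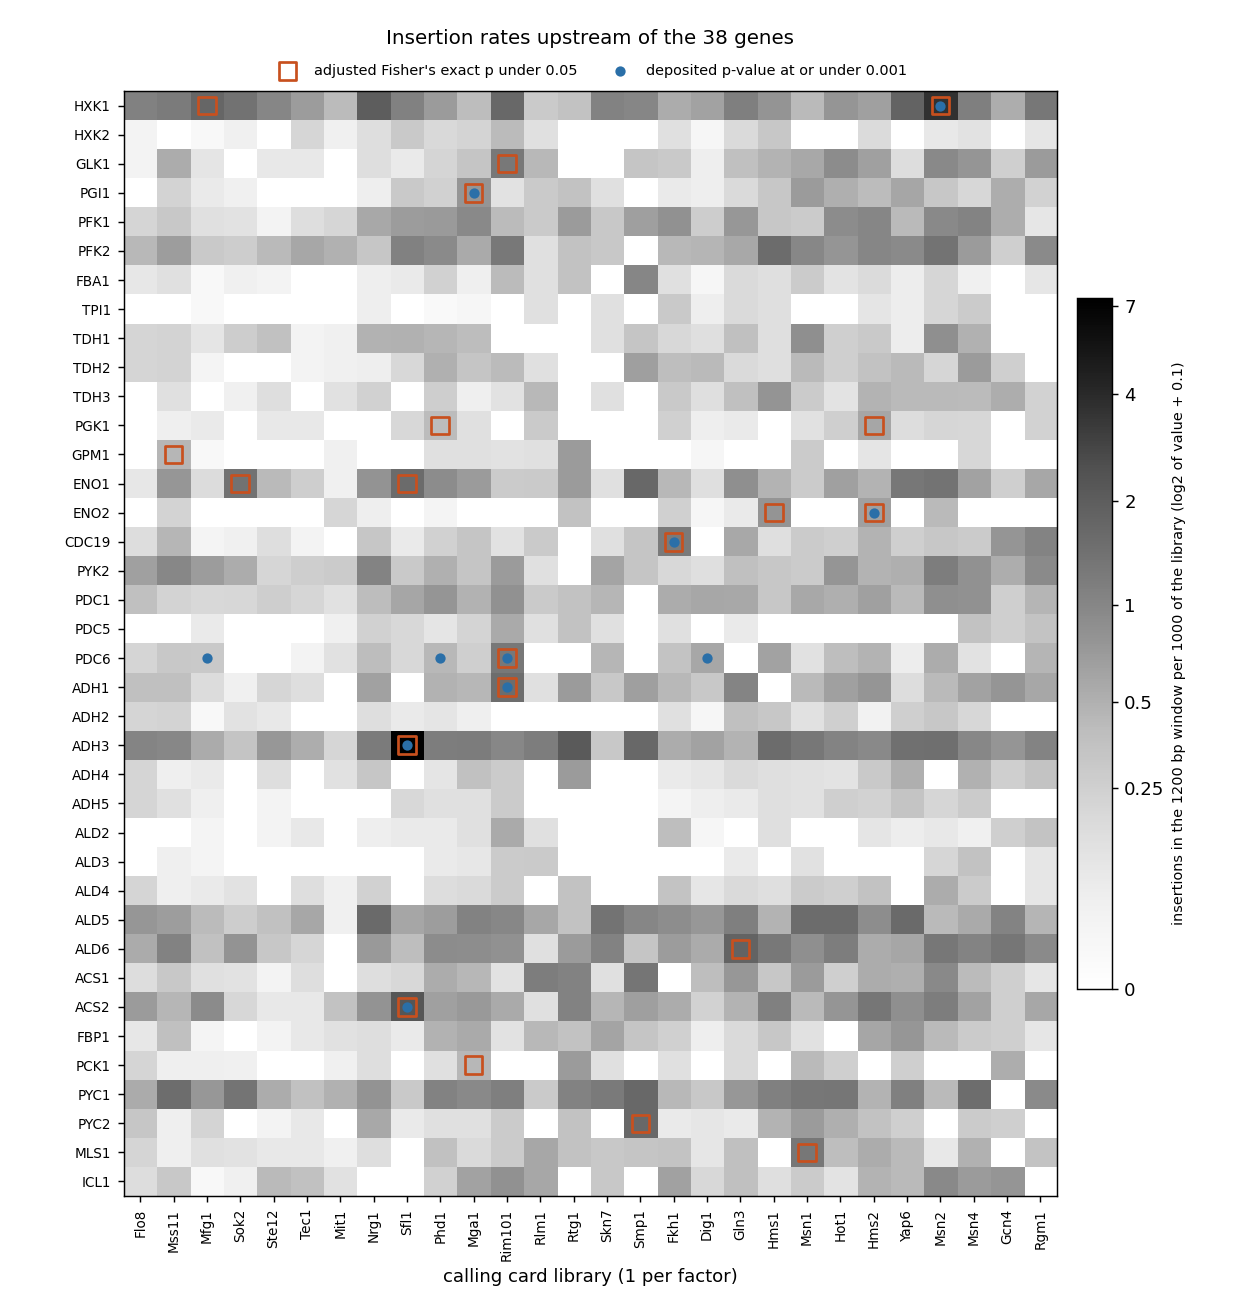
Insertions in the 1200 bp upstream window per 1000 insertions of the library (grey scale), for the 38 genes (rows) and 28 libraries (columns). Squares mark the 20 pairs that passed Fisher's exact test and dots the 11 pairs called in the authors' deposited table; the darkest cell is ADH3 in the Sfl1 library.

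HXK1, with the largest log2 change upward of the 38 genes, was the only one of them called for Msn2. Msn2, an activator of the general stress response, placed 34 insertions upstream of HXK1 (exact Poisson interval 23.5 to 47.5). That was 3.59 per 1000 insertions of the Msn2 library, against 0.968 per 1000 in the other libraries (odds ratio 3.72, Fisher's exact test, adjusted p = 1.8e-07). In the authors' deposited table the p-value was 3.12e-06. Of the 34 insertions 17 lay 401 to 600 bp upstream. Mfg1 placed 69 insertions there, 1.69 per 1000 against 0.955 in the other libraries (odds ratio 1.78, Fisher's exact test, adjusted p = 0.0049), but the authors' deposited table gave 0.0499. The Mfg1 insertions lay at 62 positions, 38 of them also hit in another library. Only Msn2, Nrg1 and Yap6 had a higher rate in the HXK1 window than Mfg1. Nrg1 held 25 of its 12461 insertions there and Yap6 21 of its 11796, and neither passed. The Msn4 library, of the paralog of Msn2, held 16 insertions in the window.

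GLK1 showed a call for Rim101, a repressor that acts in the alkaline pH response. The call rested on 9 insertions, 1.25 per 1000 against 0.274 in the other libraries (odds ratio 4.58, Fisher's exact test, adjusted p = 0.031). It did not reach the threshold in the authors' deposited table, at 0.00184, and it passed under 2 of 8 alternative settings. The GLK1 window also held 9 insertions of Msn2 and 11 of Msn4. HXK2 was called by no factor, and its lowest p-value in the authors' deposited table was 0.449.

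The repressor Sfl1 gave the strongest call of the 38 genes. It placed 75 insertions upstream of ADH3, the mitochondrial alcohol dehydrogenase (exact Poisson interval 59.0 to 94.0), or 7.36 per 1000 against 0.873 in the other libraries (odds ratio 8.49, Fisher's exact test, adjusted p = 2e-37). In the authors' deposited table it was 1.44e-15. They lay at 75 positions, 47 of the insertions in the stretch 801 to 1200 bp upstream, where 22 lay at 801 to 1000 bp and 25 at 1001 to 1200 bp. In the window of 600 bp the pair did not pass. Sfl1 also called ACS2, with 23 insertions, 2.26 per 1000 against 0.599 (odds ratio 3.77, Fisher's exact test, adjusted p = 6.3e-05), and ENO1, with 16 insertions, 1.57 per 1000 against 0.550 (odds ratio 2.86, Fisher's exact test, adjusted p = 0.036). For ACS2 the authors' deposited table gave 8.89e-06 and for ENO1 0.287. ENO1 also passed for Sok2, with 21 insertions and 1.40 per 1000 against 0.544 (odds ratio 2.58, Fisher's exact test, adjusted p = 0.023), where the authors' deposited table gave 0.389.

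Single factors stood out at several abundant glycolytic genes. Fkh1, a forkhead factor of the cell cycle, placed 25 insertions upstream of CDC19, 1.22 per 1000 against 0.226 in the other libraries (odds ratio 5.40, Fisher's exact test, adjusted p = 1e-07). Of these 15 lay 801 to 1000 bp upstream, and the call was lost in the window of 600 bp. Hms2 placed 11 upstream of ENO2, 0.648 per 1000 against 0.0677 (odds ratio 9.57, Fisher's exact test, adjusted p = 6.1e-05), with 7 of them 201 to 400 bp upstream. Mga1 placed 21 upstream of PGI1, 0.771 per 1000 against 0.182 (odds ratio 4.24, Fisher's exact test, adjusted p = 0.0001), with 11 of them 401 to 600 bp upstream. The authors' deposited table called these pairs too, at 4.86e-05 for CDC19, 5.45e-07 for ENO2 and 3.15e-05 for PGI1. The ENO2 and PGI1 calls were lost when windows were cut at the nearest other gene, which left 173 bp for ENO2 and 123 bp for PGI1.

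Calls at the remaining genes of glycolysis rested on few insertions. PGK1 passed for Phd1 with 17 insertions and for Hms2 with 10 (odds ratios 3.12 and 4.19, Fisher's exact test, adjusted p = 0.026 and 0.038). GPM1 passed for Mss11 with 6 insertions, and ENO2 for Hms1 with 5 (odds ratios 7.32 and 9.65, Fisher's exact test, adjusted p = 0.041 and 0.033). None of these 4 was called in the authors' deposited table, with p-values from 0.00541 to 0.0781. PFK1, PFK2, FBA1, TPI1, TDH1, TDH2, TDH3 and PYK2 were called by no factor either way.

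**Figure D4:**
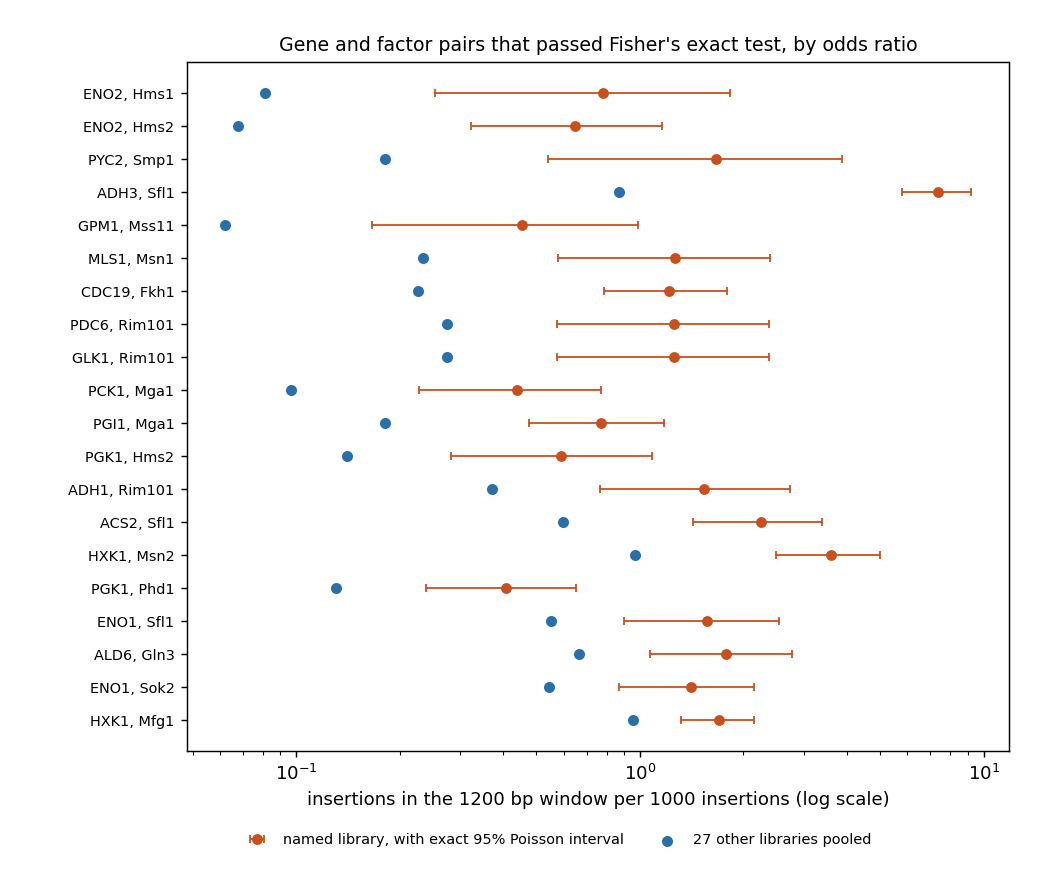
Insertions per 1000 in the 1200 bp window (log axis) for the 20 pairs that passed Fisher's exact test, in the named library (orange, with exact 95% Poisson interval) and in the 27 other libraries pooled (blue), ordered by odds ratio. ADH3 in the Sfl1 library has the highest rate at 7.36 per 1000, and ENO2 in the Hms1 and Hms2 libraries the largest odds ratios.

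In fermentation and acetate metabolism Rim101 was called at ADH1 and PDC6. It placed 11 insertions upstream of ADH1, 1.53 per 1000 against 0.371 (odds ratio 4.14, Fisher's exact test, adjusted p = 0.019; 0.000388 in the authors' deposited table). PHM7, whose window overlaps that of ADH1 from the other strand, was called for Rim101 as well, so the genes cannot be told apart. The ADH1 call was lost with a window of 600 bp, with the window cut at the nearest gene, with each position counted once and with at least 2 reads (Fisher's exact test, adjusted p = 1, 0.36, 0.087 and 0.36). Rim101 placed 9 insertions upstream of PDC6, 1.25 per 1000 against 0.274 (odds ratio 4.58, Fisher's exact test, adjusted p = 0.031; 1.83e-05 in the authors' deposited table). The authors' deposited table also called PDC6 for Phd1 at 2.78e-08, for Dig1 at 7.32e-08 and for Mfg1 at 0.000216, with 18, 15 and 12 insertions. Against the other libraries these 3 did not pass, with odds ratios of 1.57, 2.14 and 1.01 and adjusted p-values from Fisher's exact test of 0.80, 0.30 and 1. The PDC6 window overlaps that of CTT1, the cytosolic catalase gene on the other strand, and 48.7% of its insertions lay 1001 to 1200 bp from the PDC6 start.

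ALD6 passed for Gln3, an activator of nitrogen-repressed genes, with 19 insertions, 1.78 per 1000 against 0.664 (odds ratio 2.68, Fisher's exact test, adjusted p = 0.025; 0.0139 in the authors' deposited table). The call was lost with each position counted once, with at least 2 reads, without positions richer in another library and with adjustment within the factor (Fisher's exact test, adjusted p = 0.061, 0.21, 0.15 and 0.072). PDC1, PDC5, ADH2, ADH4, ADH5, ALD2, ALD3, ALD4, ALD5 and ACS1 were called by no factor. ADH2 and ALD4, with the largest log2 changes upward after HXK1, held 45 and 66 insertions over all libraries, and their lowest p-values in the authors' deposited table were 0.465 and 0.588. A window with 0 insertions allows up to 3, which is 0.0721 per 1000 in the Phd1 library but 1.06 per 1000 in the Rtg1 library, so weak binding was not detectable in the small libraries.

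In gluconeogenesis and related steps the calls were small and none was in the authors' deposited table. PCK1 passed for Mga1 with 12 insertions (odds ratio 4.57, Fisher's exact test, adjusted p = 0.010; 0.037 in the authors' deposited table). MLS1 passed for Msn1 with 9 insertions (odds ratio 5.42, Fisher's exact test, adjusted p = 0.012), of which 7 lay 401 to 600 bp upstream. PYC2 passed for Smp1 with 5 insertions (odds ratio 9.21, Fisher's exact test, adjusted p = 0.033), in a library of 3005. FBP1, PYC1 and ICL1 were called by no factor.

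The libraries differed in how often they hit the 38 windows. Msn2 placed 23.0 of every 1000 insertions there, Rim101 19.4 and Sfl1 19.1, while Mit1 placed 4.21, Tec1 5.84 and Ste12 6.66. The 38 are among 6444 gene windows. Of the insertions summed over all gene windows, they held 1.847% for Msn2, 1.618% for Rim101 and 1.825% for Sfl1. For Mit1, Tec1 and Ste12 they held 0.518%, 0.515% and 0.58%. ADH3 alone gave 75 of the Sfl1 insertions, and without it Sfl1 placed 11.8 per 1000; without HXK1 Msn2 placed 19.4. In the 38 windows most insertions lay away from the start codon. The profile was not computed for other genes, so it may not be particular to these. Of 5091 insertions counted over the 38 windows, 7.92% lay within 200 bp of the start codon, 27.4% at 201 to 400 bp and 22.5% at 401 to 600 bp, falling to 10.3% at 1001 to 1200 bp. The fullest step of 200 bp was 201 to 400 bp for 17 genes and 401 to 600 bp for 8, and it was 1 to 200 bp for 0. GPM1 was the most concentrated, with 73.3% of its 30 insertions at 401 to 600 bp. CDC19, ACS2, TDH1 and HXK1 were fullest at 801 to 1000 bp, and PYK2, PDC6 and ADH3 at 1001 to 1200 bp. Of the 38 windows 30 held part of another feature of the table, and 20 overlapped the window of a gene on the other strand. Features that share a gene's coordinates were not counted, so GLK1 is not among the 30 although its window lies inside its shared coordinates. Neither count was made over all genes.

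**Figure D5:**
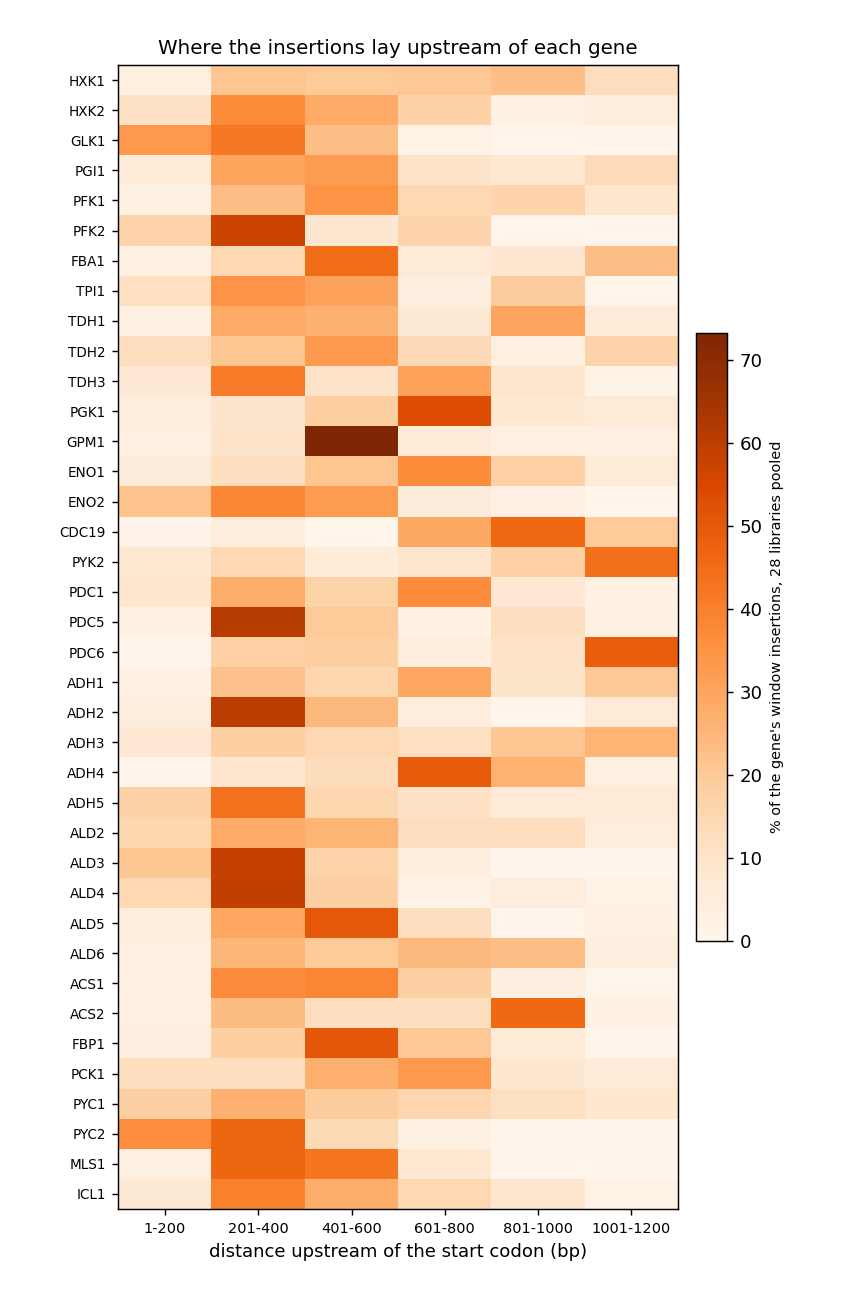
Share of each gene's window insertions (percent, colour) by distance upstream of the start codon in steps of 200 bp, over the 28 libraries pooled. Most genes are fullest at 201 to 600 bp, while CDC19 and ACS2 are fullest at 801 to 1000 bp and PYK2, PDC6 and ADH3 at 1001 to 1200 bp.

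Among the 8 regulators of glycolysis and 10 genes of glucose repression and derepression, only TYE7 and ADR1 had a deposited call. Over all genes 11.3% had a deposited call, and 21.1% passed Fisher's exact test for at least 1 factor. TYE7, an activator of glycolytic genes, held 156 insertions of Mfg1 (1.18e-14 in the authors' deposited table), and was called for Sfl1 as well. ADR1 held 72 insertions of Tec1 (3.55e-15 in the authors' deposited table), and was called for Dig1 as well. GCR1, GCR2, RAP1, CAT8, MIG1, MIG2 and SNF1 had no call in the authors' deposited table, though GCR1 passed Fisher's exact test for Mga1. FBP26, a gene for a regulatory bisphosphatase, passed it for Rlm1. GPD1, GPP1 and GPP2 of the glycerol branch were each called for Hot1, with 537, 40 and 53 insertions. GPD2 of the same branch held 171 insertions over all libraries and had no call either way.

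The pairs differed in how many ways of counting they passed. HXK1 with Msn2 and ACS2 with Sfl1 passed under all 8 alternative settings, and ADH3 with Sfl1, CDC19 with Fkh1, ENO2 with Hms2, HXK1 with Mfg1 and PGI1 with Mga1 under 7. ENO1 with Sok2, MLS1 with Msn1 and PCK1 with Mga1 passed under 6, and ENO1 with Sfl1, PDC6 with Rim101 and PGK1 with Hms2 under 5. ADH1 with Rim101, ALD6 with Gln3 and PGK1 with Phd1 passed under 4. ENO2 with Hms1, GPM1 with Mss11 and PYC2 with Smp1 passed under 3, and GLK1 with Rim101 under 2. These tallies are not equally strict for all pairs. Among the 8 settings, placing the start of GLK1 at the edge of its shared coordinates moved only the GLK1 window. Other pairs could hardly fail it. Cutting at the nearest gene left the windows of HXK1, GLK1, ADH3, CDC19, ENO1 and PDC6 unchanged. For GLK1 this was so because windows were not cut at genes that share coordinates, and its window lies inside its shared coordinates. With each position counted once 10 pairs passed, and with insertions of at least 2 reads 8. The median number of reads per insertion was 2 for Rim101 upstream of ADH1 and of PDC6, against 15 in its whole library.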

How the data were processed

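Ty5 insertions of 28 factors and polyA RNA of 2 media were analysed. Insertions were recovered by inverse PCR of digested DNA, per the labels' protocols. Each line of the deposited insertion lists holds a site and a count, taken here as its reads. The deposited p-values rest on a test that the sources used here do not state. The authors' RPKM values are named as such per the file headers; the sources used here name neither aligner nor genome build. No step size turned the low RPKM values into whole reads (at best 14.0% came within 0.03), so RNA depth is unknown. Coordinates are those of the deposited table.

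Repeated lines were counted as listed. Strand came from the systematic name. The start of GLK1, whose coordinates span 4 genes, was placed 1503 bp (its RefSeq R64 coding length) before their end. With this start, windows with 0 insertions matched deposited p-values of 1 in 28 of 28 libraries, against 21 at the shared edge. Windows were placed for 6444 of 6450 genes. Fisher's test was tested on simulated data. SciPy 1.17.1 and pandas 2.3.3 were used. Members, gene lists and tests were chosen with earlier results of these data known. Named in the text are all 38 genes, pairs past either threshold, genes sharing coordinates or windows with them, and genes of the pathway lists past 2-fold; other genes of those lists named in the text, and GPD1, were chosen after their values were seen. Alternatives were other pseudocounts, filters, scalings, windows and ways of counting insertions.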

Additional observations from a re-analysis of the deposited data

How the results depend on the processing

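The count of 7 genes at least 2-fold higher was 5 to 8 and that of 12 lower was 9 to 15 under the alternatives. Dividing each library by its median lowered the log2 change of all features by 0.13 at the median; the median of the 35 genes that passed the filter was then -0.84 and with upper-quartile scaling -0.81, and the median of all 38 with no filter was -0.53, each below the median of all features. PFK2, TDH1, ALD5, FBP1 and MLS1 crossed 2-fold in at least 1 setting, and no gene past 2-fold changed direction under another pseudocount or scaling. Of the 11 deposited calls 1 remained, ADH3 with Sfl1, when genes whose window overlaps that of another gene were left out. That step dropped 24 of the 38 genes together with their calls. Of the 20 pairs that passed Fisher's exact test 10 passed with each position counted once, 8 with at least 2 reads, and 13 without the genes that share coordinates, an alternative chosen after seeing the data. The cause was not tested. With a window of 600 bp 16 pairs passed, of which 11 were among the 20. With windows cut at the nearest gene 15 passed, 13 of them among the 20. Without positions richer in another library, and with adjustment within each factor, 17 passed, 14 of them among the 20. With the 2 largest libraries left out of the pooled others, but still tested themselves, 18 of the 20 passed. Placing the start of GLK1 at the shared edge, also chosen after seeing the data, removed its Rim101 call. Small libraries limit what counts of 5 to 10 insertions can show, and 1 library per medium gives no error on any RPKM. No paired analysis was possible because each group has 1 library.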
